A study of Mus musculus with 1119 samples.

Results

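Agouti-positive and agouti-negative dermal papilla cells of the growing mouse hair follicle are described here. The groups were chosen by gene a, which encodes agouti: of 337 cells that the authors annotated as dermal papilla, 304 had at least 2000 genes at a value of 1 or more in TPM (a length-corrected share of the cell's transcripts, deposited by the authors), and of these 126 carried a at 1 TPM or more (agouti-positive) and 178 did not (agouti-negative). The study profiled 1119 single cells of mouse back skin by Smart-seq2, a full-length single-cell RNA method run in 96-well plates. All 304 came from male mice of the strain K14-H2BGFP;LEF1-RFP at postnatal day 30 (P30), sorted on GFP, RFP, integrin α9 and CD117. Both groups therefore share the strain, a green histone reporter under a keratin 14 promoter (which is active in epithelium), a red reporter named for LEF1, the sex, the age and the sort. The labels do not say which sort markers were selected for or against, and the agouti allele of the strain is not given in the sources used here.

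Agouti is a short-range protein secreted by the dermal papilla, the knot of mesenchymal cells inside the hair bulb. It blocks the melanocortin receptor Mc1r on neighbouring melanocytes and so switches them from black-brown to yellow pigment, which gives the banded hairs of wild mice. The papilla also sends WNT, BMP, FGF and IGF signals, and their inhibitors, to the epithelial cells of the hair bulb that surround it.

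Each of the 304 cells is a library of its own. No label names the animals, so the cells of a group count as 1 sample and no difference was tested. A difference below is the mean of log2(TPM + 1) in agouti-positive cells minus that in agouti-negative cells, and the 4 plates (DP2, DP3, DP5 and DP6) give a technical spread. Intervals are 95% Clopper-Pearson intervals of shares of cells and cover the counting of cells only. Agouti-positive and agouti-negative cells had a median of 5916.5 and 5860 genes at 1 TPM or more. Spike-ins took a median of 8.19% and 8.55% of TPM, ribosomal RNA 68.4% and 68.5%, and mitochondrial genes 0.652% and 0.636%. The 33 cells left out had at most 24 genes each, and none carried a. No doublet caller was run.

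The start regions of a and of the secreted genes Dkk2 and Mmp3, which stood higher beside it, are shown because the results turn on these genes. They are the 250 bases before the gene start on the plus strand of GRCm38.p6, from RefSeq, at chr2:155013320-155013569 for a, chr3:132085042-132085291 for Dkk2 and chr9:7445572-7445821 for Mmp3. The capitals mark matches on either strand to TATAAA (the core promoter box that TBP binds) or to TGANTCA (the site of AP-1 factors such as Fos and Jun). CTTTGAT (a TCF/LEF site) was searched as well, and no matches overlapped.
a: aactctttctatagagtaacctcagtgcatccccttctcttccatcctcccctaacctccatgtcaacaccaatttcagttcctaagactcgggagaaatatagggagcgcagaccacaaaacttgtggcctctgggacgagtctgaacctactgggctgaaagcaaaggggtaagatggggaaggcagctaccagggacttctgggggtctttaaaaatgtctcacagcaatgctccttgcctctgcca
Dkk2: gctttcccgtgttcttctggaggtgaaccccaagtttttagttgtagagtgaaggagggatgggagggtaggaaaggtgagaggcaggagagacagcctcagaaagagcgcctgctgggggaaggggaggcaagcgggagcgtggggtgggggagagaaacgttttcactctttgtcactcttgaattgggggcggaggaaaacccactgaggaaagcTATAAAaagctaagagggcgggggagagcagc
Mmp3: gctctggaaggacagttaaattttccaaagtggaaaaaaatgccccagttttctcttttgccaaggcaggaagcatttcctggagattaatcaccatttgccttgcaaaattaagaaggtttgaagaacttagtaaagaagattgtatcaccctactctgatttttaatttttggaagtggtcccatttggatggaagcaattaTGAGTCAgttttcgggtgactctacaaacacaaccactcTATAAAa
The a window held none of the 3 motifs. That of Dkk2 held TATAAA 32 bases before the start, and that of Mmp3 held TGAGTCA 46 bases and TATAAA 7 bases before it. Among 32851 RefSeq windows of the same length, 6.75% held TGANTCA, 12.4% TATAAA and 3.21% CTTTGAT. The a gene is known to start from several promoters, and the window covers the start that RefSeq lists. These matches describe letters and not binding.

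Gene a had no intermediate values at the threshold. It was listed at exactly 0 in all 178 agouti-negative cells, no cell lay between 0 and 1 TPM, and the lowest agouti-positive values were 2.79, 2.80 and 4.41. In agouti-positive cells it ran through a median of 87.7 to a highest value of 634 TPM. Of the 126 cells, 8 lay under 10 TPM, 40 from 10 to under 50, 55 from 50 to under 200, and 23 at 200 or more. A gene that was silent and an RNA that was missed in the well cannot be told apart at 0.

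Agouti-positive cells made up 41.4% (35.9 to 47.2) of the 304 cells. On plate DP2 they were 36 of 73 cells (49.3%, 37.4 to 61.3), on DP3 34 of 85 (40%, 29.5 to 51.2), on DP5 31 of 74 (41.9%, 30.5 to 53.9) and on DP6 25 of 72 (34.7%, 23.9 to 46.9). The intervals of the 4 plates overlapped. In the P30 hair bulb epithelium, deposited as a separate table, a reached 1 TPM in 1 of 384 cells (0.260%, 0.00659 to 1.44), at 1.45 TPM, with a median of 7392.5 genes per cell.

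**Figure D1:**
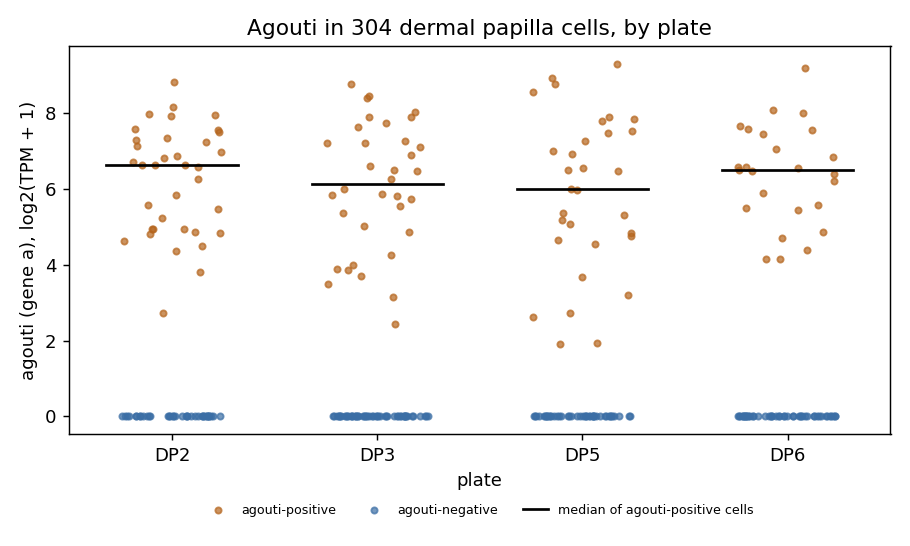
Level of agouti as log2(TPM + 1) (vertical axis) in each of the 304 cells (points, spread sideways at random) on the 4 plates; black lines are medians of the agouti-positive cells. Every plate holds cells at 0 and cells spread up to at least 436 TPM, and no cell lies between 0 and 2.79 TPM.

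The annotation places a (ENSMUSG00000027596) on chromosome 2 of GRCm38, the assembly also named mm10, at 154791402 to 155051012 on the plus strand, where its longest model overlaps Raly and Eif2s2. Raly, an RNA-binding protein gene, stood 0.80 higher in agouti-positive cells (0.39 to 1.35 by plate; mean 79.1 against 53.1 TPM). Eif2s2, a translation initiation subunit, differed by 0.08 and had no constant sign over plates. Next to them, Ahcy, the hydrolase of S-adenosylhomocysteine, gave 0.73 (-0.58 to 1.79), Chmp4b, a membrane-remodelling ESCRT protein, 0.51 (0.23 to 0.84), Itch, a ubiquitin ligase, 0.27 (-0.38 to 0.84) and Zfp341, a zinc finger gene seen in 6.35% and 8.43% of cells, -0.04. How reads in the overlap were shared between a, Raly and Eif2s2 was not tested.

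Across genes, the groups differed in a small set. Of 8264 genes seen at 1 TPM or more in at least 30% of either group, 183 (2.21%) were at least 1 higher in agouti-positive cells and 89 (1.08%) at least 1 lower, 272 (3.29%) in all. Of all 8264, 4356 were higher by any amount and 3908 lower, with a median difference of 0.02 and an SD over genes of 0.42. The sign was the same on all 4 plates for 179 of the 183 and 87 of the 89 genes, beside 26.6% of all 8264. Genes past 1 were picked by the difference over these same cells, which favours a constant sign, so the plates are no replication. Higher genes made up 67.3% of those past 1, and 54.2% when the difference was taken as the log2 ratio of mean TPM (123 higher, 104 lower), which weighs cells with very high values more. The counts moved with the pseudocount (514 higher and 298 lower with 0.1, 38 and 16 with 10), with rescaling to leave out spike-ins, ribosomal RNA and mitochondrial genes (359 and 226), and with the 33 nearly empty wells counted as agouti-negative (801 and 25).

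Dkk2, a secreted modulator of WNT signals that binds the LRP co-receptors, was the gene with the largest difference (chromosome 3, 132085292 to 132180304). It ran from 0 through a median of 224 to 674 TPM in agouti-positive cells, and from 0 through 38.3 to 451 in agouti-negative cells. Nearly every agouti-positive cell carried it, and the ranges of the groups overlapped. The mean was 232 against 72.6 TPM and the difference 3.27 (2.77 to 3.54 by plate), with the gene seen in 99.2% (95.7 to 99.98) and 71.9% (64.7 to 78.4) of cells. Put the other way, 125 of the 126 agouti-positive cells carried Dkk2, while 128 agouti-negative cells carried it too and 50 cells had neither gene.

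Sema5a, a transmembrane guidance protein of the semaphorin family, ran from 0 through a median of 30.3 to 420.3 TPM in agouti-positive cells, and from 0 through 0.860 to 96.8 in agouti-negative cells. Its difference of 2.95 was close to equal on the plates (2.83 to 3.10), and it was seen in 91.3% against 48.9% of cells. Gpx1, which encodes the glutathione peroxidase that removes hydrogen peroxide, ran from 0 through a median of 193 to 1326 TPM in agouti-positive cells, and from 0 through 32.4 to 640.5 in agouti-negative cells, with a difference of 2.92 (2.40 to 3.35). In both genes agouti-positive cells stood higher and the ranges overlapped.

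Mmp3, or stromelysin, is a secreted protease that cuts matrix proteins and other proteases. It ran from 0 through a median of 41.5 to 1318 TPM in agouti-positive cells, and from 0 through 0 to 4955 in agouti-negative cells. Most agouti-positive and a minority of agouti-negative cells carried it, at 71.4% (62.7 to 79.1) and 32.6% (25.8 to 40), and the difference was 2.75 (2.25 to 3.04). The highest value of all stood in an agouti-negative cell. Without that cell the agouti-negative mean fell from 69.1 to 41.5 TPM, against 133 in agouti-positive cells, and the difference was 2.81. As a log2 ratio of the mean TPM of all cells it was 0.93. The location of Mmp3 is chromosome 9, 7445822 to 7455975.

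Other genes with large differences fell into several roles. Avpr1a, a receptor of vasopressin, had a mean of 87.4 against 25.6 TPM (2.94) and Olfml2b, an extracellular olfactomedin-like protein, 39.2 against 3.39 TPM (2.85). Cdkn1a, the p21 inhibitor of cell-cycle kinases, ran from 0 through a median of 80.0 to 493 TPM in agouti-positive cells, and from 0 through 0 to 381 in agouti-negative cells (2.84). Slc26a7, an anion exchanger, was abundant in both groups (714 against 285 TPM, 2.77), and Slc27a3, of the fatty acid transport and activation family, was seen in 71.4% against 23.6% of cells (2.64). Nupr1, a stress-induced nuclear protein, gave 2.55 (99.99 against 32.2 TPM), S100a4, a calcium-binding protein, 2.48 (52.4% against 17.4% of cells), and Gem, a small GTPase, 2.48 (41.2 against 12.9 TPM). All 12 genes were higher on each plate, which was a condition for being named.

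**Figure D2:**
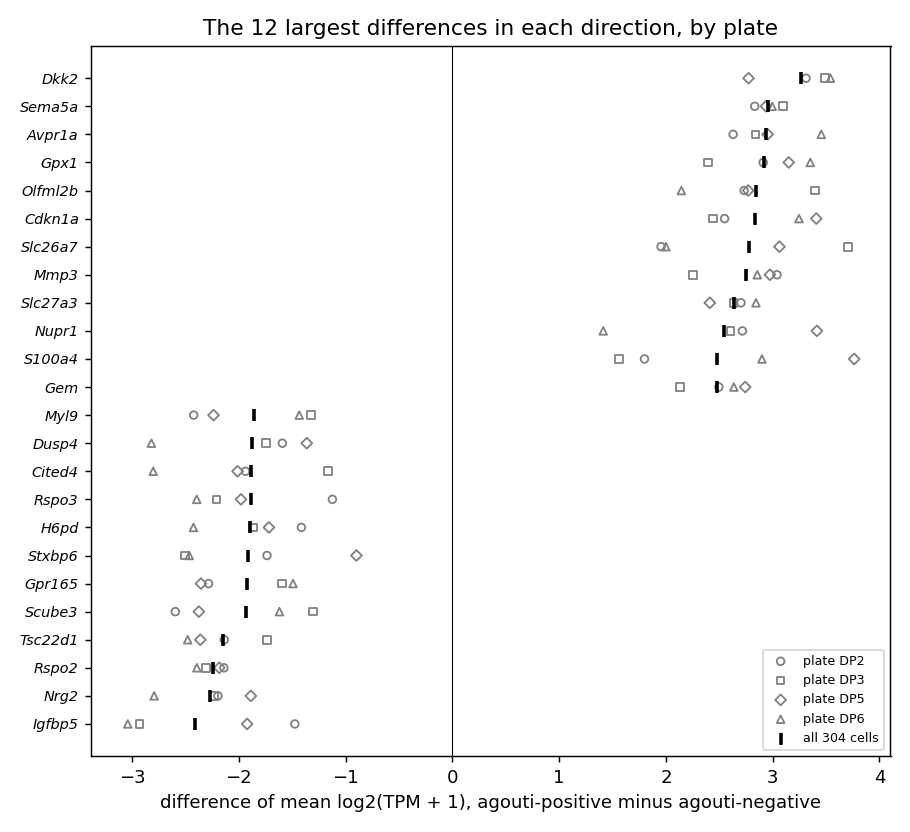
Difference of mean log2(TPM + 1), agouti-positive minus agouti-negative cells (horizontal axis), for the 12 genes that differed most each way: black bars over all 304 cells, open symbols within each plate. Dkk2 at 3.27 and Igfbp5 at -2.41 lie at the ends; the same sign on each plate was required of these genes.

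Of the genes lower in agouti-positive cells, Igfbp5 and Nrg2 had the largest differences. Igfbp5, which binds IGFs, ran from 0 through a median of 0 to 594 TPM in agouti-positive cells, and from 0 through 22.1 to 1496 in agouti-negative cells (difference -2.41, -3.04 to -1.48 by plate). Nrg2, a neuregulin ligand of ERBB receptors, ran from 0 through a median of 11.5 to 245 TPM in agouti-positive cells, and from 0 through 69.3 to 525 in agouti-negative cells (-2.27). Both stood lower in agouti-positive cells, with overlapping ranges.

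The R-spondins, which strengthen WNT signals by binding LGR receptors, stood among the lower genes. Rspo2 (chromosome 15, 43020794 to 43170826) ran from 0 through a median of 4.91 to 332 TPM in agouti-positive cells, and from 0 through 57.4 to 365 in agouti-negative cells. It was lower by nearly the same amount on the 4 plates (-2.25, -2.39 to -2.14), and was seen in 61.1% (52.0 to 69.7) and 84.8% (78.7 to 89.8) of cells. Rspo3 (chromosome 10, 29452416 to 29535867) ran from 0 through a median of 20.4 to 728 TPM in agouti-positive cells, and from 0 through 88.6 to 572 in agouti-negative cells, with a difference of -1.89 (-2.39 to -1.12). The groups overlapped widely: 88 cells carried a and Rspo3, 38 a alone, 151 Rspo3 alone and 27 neither.

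Tsc22d1, a leucine-zipper transcriptional regulator, gave -2.14 (57.2 against 212 TPM), Scube3, a secreted and cell-surface protein, -1.94 (42.8 against 114 TPM), and Gpr165, a G protein-coupled receptor, -1.92 (12.7% against 40.4% of cells). Stxbp6, a syntaxin-binding protein, H6pd, a hexose-6-phosphate dehydrogenase of the endoplasmic reticulum, and Cited4, a partner of the CBP and p300 coactivators, gave -1.92, -1.89 and -1.88. Dusp4, a phosphatase of MAP kinases, gave -1.87 (17.5 against 45.5 TPM) and Myl9, a regulatory light chain of contractile myosin, -1.86 (64.3 against 118 TPM).

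**Figure D3:**
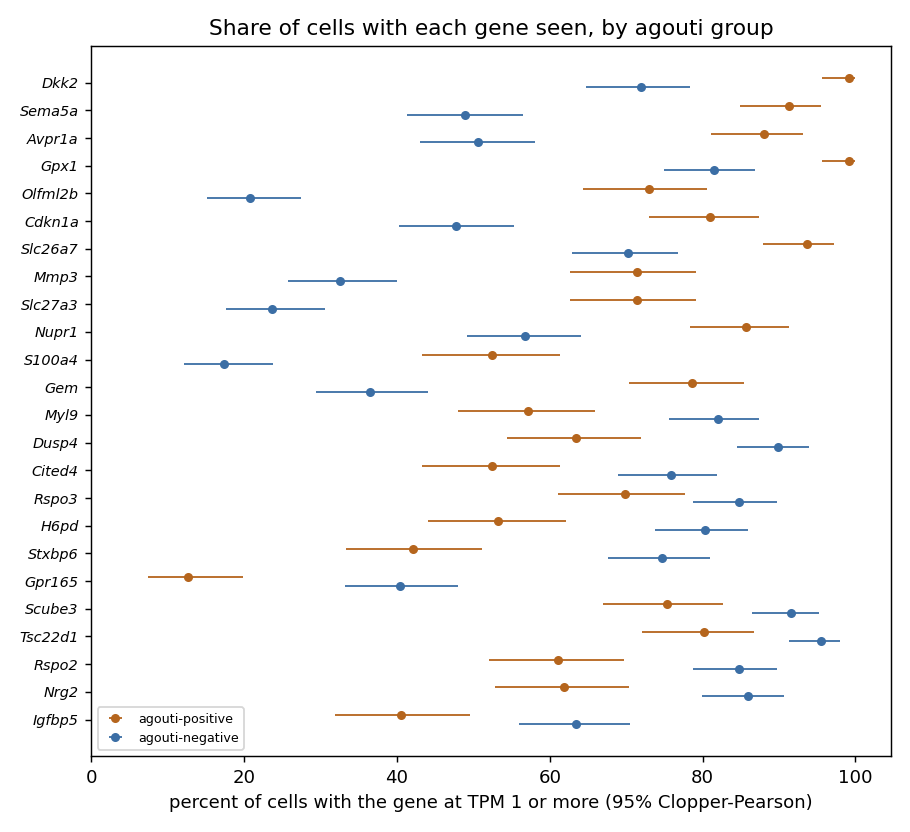
Percent of agouti-positive (brown) and agouti-negative (blue) cells with each of the 24 genes at 1 TPM or more (horizontal axis), with 95% Clopper-Pearson intervals that cover the counting of cells only. Dkk2 and Gpx1 were each seen in 99.2% of agouti-positive cells, Gpr165 in 12.7%.

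Levels of several named genes were then set against the level of a in the cell, in bands of a and for genes chosen with earlier values known. In cells with a at 0 (178 cells), from 1 to under 50 TPM (48), from 50 to under 200 (55) and at 200 or more (23), Dkk2 had a mean log2(TPM + 1) of 4.32, 7.13, 7.79 and 8.04, Sema5a of 1.57, 3.57, 4.75 and 5.96 and Mmp3 of 1.86, 3.99, 4.40 and 6.39. Each step was upward. Rspo3 stood at 5.63, 5.04, 3.09 and 2.61, Rspo2 at 4.98, 3.62, 2.33 and 1.86 and Igfbp5 at 4.09, 2.13, 1.57 and 0.97, with each step downward. Nrg2, at 5.37, 4.05, 2.51 and 2.52, did not step down between the upper bands, and Corin stood at 8.63, 8.63, 6.96 and 6.80. The lowest band of a already stood apart from 0 for Dkk2 and Igfbp5, while Rspo3 was seen in 85.4% of that band and 84.8% of cells at 0. For all of these genes but Corin, the step from 0 to cells with a repeats the difference they were named for. That step is no separate support.

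**Figure D4:**
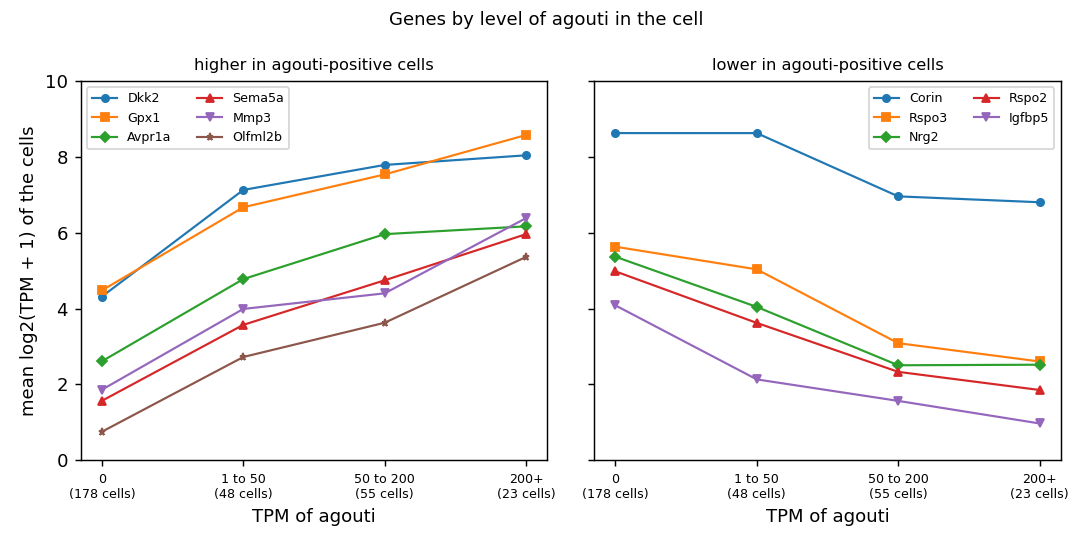
Mean log2(TPM + 1) (vertical axis) of 6 genes that were higher (left) and 5 that were lower (right) in agouti-positive cells, for cells in 4 bands of agouti TPM (horizontal axis, with the number of cells). Lines join the means of 1 gene; Corin is level over the lowest bands and lower in the upper ones (8.63, 8.63, 6.96 and 6.80).

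By rank correlation across the 304 cells, the genes most like a were Sema5a (Spearman's rho 0.65), Dkk2 (0.64), Gpx1 (0.62), Olfml2b (0.60), Slc27a3 (0.55) and Emp1 (0.54), a membrane protein at a mean of 125 against 46.5 TPM. The most opposed were Ddx26b (-0.51), Sfrp1 (-0.50), Tsc22d1 (-0.48), Fam196b (-0.46), Rspo2 (-0.45) and Ltbp1 (-0.45), a binding protein of latent TGF-beta. Over 7367 genes the median rho was 0.00. Within the 126 agouti-positive cells, where a was always seen, each of the 12 was nearer 0: Sema5a 0.47, Dkk2 0.33, Gpx1 0.44, Olfml2b 0.34, Slc27a3 0.36 and Emp1 0.37 on the positive side, and Ddx26b -0.47, Sfrp1 -0.48, Tsc22d1 -0.30, Fam196b -0.17, Rspo2 -0.27 and Ltbp1 -0.40 on the negative. The 12 were picked as the extremes over all 304 cells, of which 178 tied at 0 for a. That choice favours values nearer 0 among the agouti-positive cells alone. These are descriptions of cells that share plates and a sort.

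Of the agouti pathway, a receptor was higher and a protease lower in agouti-positive cells. Of 13 genes of the list, 5 were expressed widely enough to be compared beside a, which chose the groups: 1 was at least 1 higher and 1 at least 1 lower, with a median of -0.07 (all tested genes 0.02). Over all 8264 genes 2.21% were at least 1 higher and 1.08% at least 1 lower. These shares stand beside the counts of this list and of each list below, and no list was tested against them. Mc5r, a melanocortin receptor known from exocrine glands, ran from 0 through a median of 94.8 to 728 TPM in agouti-positive cells, and from 0 through 49.2 to 657 in agouti-negative cells and was higher by 1.30 (0.52 to 2.08). Corin, a transmembrane protease of the papilla that dampens the agouti pathway, ran from 0 through a median of 385 to 1731 TPM in agouti-positive cells, and from 0 through 727 to 3394 in agouti-negative cells. It was lower by the mean (-1.06, -1.35 to -0.70; 0.29 with the nearly empty wells counted as agouti-negative, and -0.47 within levels of the immediate early genes described below), and almost equal shares of the groups carried it (91.3% against 92.1% of cells).

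Atrn and Atrnl1, attractin and its relative, of which attractin is needed for agouti to act, gave -0.07 and -0.44, and Mgrn1, the ubiquitin ligase mahogunin, 0.04; none had a constant sign over plates. Agrp, the agouti-related peptide, was seen in 8.73% against 3.93% of cells and Pomc, the precursor of melanocortins, in 3.97% against 2.25% of cells. Mc1r and Mc4r, the receptors of melanocytes and of the hypothalamus, reached 1 TPM in no cell, and Mc3r, Mrap and Mrap2, a receptor and receptor partners, were listed at 0 throughout.

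Among signals to melanocytes, Edn3 was lower in agouti-positive cells. Of 12 genes of the list, 2 were expressed widely enough to be compared, Edn3 and Fgf2. Both were lower, Edn3 by at least 1, beside 3908 lower of all 8264 genes. Edn3, the endothelin that supports melanocytes, ran from 0 through a median of 0 to 257 TPM in agouti-positive cells, and from 0 through 18.1 to 1901 in agouti-negative cells (-1.37, -1.49 to -1.03). It was seen in 42.9% against 60.7% of cells, and 54 cells carried a together with Edn3. Fgf2, a growth factor for melanocytes, gave -0.34. Kitl, the KIT ligand, was seen in 8.73% against 4.49% of cells and Cxcl12, a chemokine, in 3.17% against 19.7% of cells, both under the limit for comparison.

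WNT inhibitors went in both directions. Of 15 genes of the list, 9 were expressed widely enough to be compared; 2 were at least 1 higher and 2 at least 1 lower, with a median of -0.01. Beside Dkk2, Notum, the enzyme that strips the lipid from WNT proteins, was higher, running from 0 through a median of 79.3 to 855 TPM in agouti-positive cells, and from 0 through 26.7 to 381 in agouti-negative cells (1.89, 0.98 to 2.53). Sfrp1, a secreted frizzled-related protein that binds WNTs, was lower and ran from 0 through a median of 80.5 to 897 TPM in agouti-positive cells, and from 0 through 271 to 1408 in agouti-negative cells (-1.50, -1.76 to -1.23). Frzb, another of that family, gave -1.43 (18.3 against 44.6 TPM). Groups overlapped in each of these genes.

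All 5 comparable WNT ligands and R-spondins of a list of 20 were lower in agouti-positive cells (median difference -0.73, -1.11 to -0.40 between plates), 2 of them by at least 1, Rspo2 and Rspo3. Of all 8264 genes, 3908 were lower. Rspo4, the most abundant by TPM, gave -0.73 (464 against 779.9 TPM) and Wnt5a, a WNT that acts mostly outside the beta-catenin route, -0.68. Of 11 WNT response genes, 7 were compared, 5 higher and 2 lower (median difference 0.63, 0.37 to 0.77 between plates). Tcf7, a TCF family factor, gave 1.16, Lgr6, an R-spondin receptor, 1.02, Nkd2, a feedback inhibitor, 0.82, and Axin2, a feedback scaffold, -0.20 with a sign that varied over plates.

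**Figure D5:**
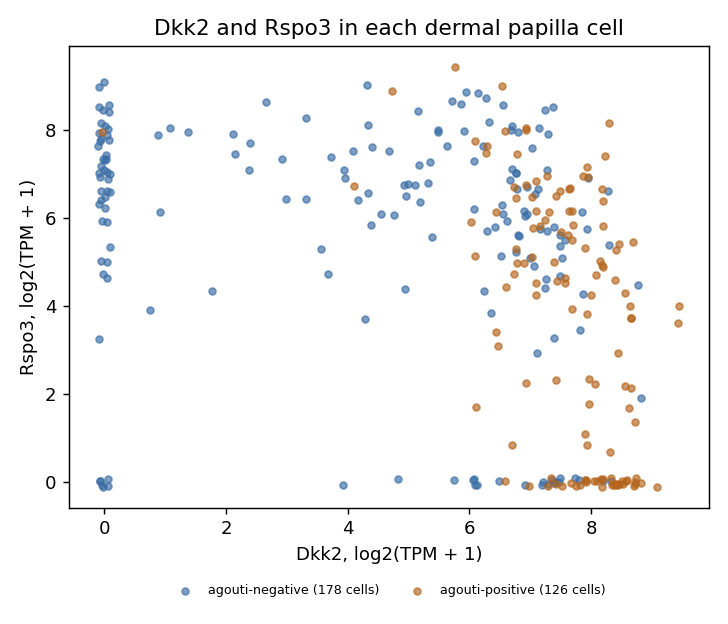
Dkk2 (horizontal axis) and Rspo3 (vertical axis), both as log2(TPM + 1), in each agouti-positive (brown, 126 cells) and agouti-negative (blue, 178 cells) cell; points are shifted slightly at random to part those at 0. All but a few agouti-positive cells lie at high Dkk2 and over the whole range of Rspo3, and agouti-negative cells are spread over both genes.

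Bmp2 had the largest difference among the BMP and activin ligands. Of 14 genes of the list, 8 were expressed widely enough to be compared; 7 were higher, 1 of them by at least 1, and 1 was lower (median difference 0.50, 0.31 to 0.54 between plates), beside 4356 higher and 3908 lower of all genes. Bmp2 ran from 0 through a median of 23.4 to 273 TPM in agouti-positive cells, and from 0 through 1.58 to 102 in agouti-negative cells (2.04, 1.44 to 2.42), and Gdf10 and Bmp3, relatives of the family, gave 0.85 and 0.76. Bmp4 was close to even at 0.18 and Bmp6 gave -0.74. Among 8 BMP inhibitors compared, Nbl1, a secreted antagonist, gave 1.26 and Bambi, a decoy receptor, 1.00, while Noggin (Nog) gave -0.83 (23.8% against 42.7% of cells), and the median was -0.11.

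Of 6 BMP response genes compared, 2 were higher and 4 lower, 1 of these by at least 1 (median -0.12). Id3, an inhibitor of bHLH factors induced by BMP, ran from 0 through a median of 31.2 to 812 TPM in agouti-positive cells, and from 0 through 95.9 to 1303 in agouti-negative cells and was lower (-1.67, -2.03 to -0.85). Id2 and Id1 of the same family gave -0.87 and 0.20.

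Of 10 IGF pathway genes, 7 were compared, of which 3 were higher and 4 lower: 1 at least 1 higher and 3 at least 1 lower (median difference -0.66, -1.11 to -0.04 between plates). Beside Igfbp5, the lower ones were Igfbp4, an IGF-binding protein (-1.31, -2.41 to -0.04), and Igf1, the ligand itself (-1.04, 10.2 against 23.3 TPM), with Igf1r, its receptor, at -0.66. Igfbp3, the most abundant IGF carrier of blood, was higher at 1.61 (168 against 47.3 TPM). Of 12 FGF ligands 4 were compared, and all 4 were lower, 1 of them by at least 1, beside 3908 lower of all 8264 genes. Fgf10, a papilla ligand for the epithelium, gave -1.24 (30.6 against 85.6 TPM) with almost equal shares of cells (89.7% against 89.3% of cells), and Fgf7, which acts on the same receptor, -0.30 with a sign that varied over plates. Among 8 FGF response genes compared, 3 were higher and 5 lower, Dusp4 by over 1 and no gene higher by 1.

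Of the collagens compared, 13 were higher and 7 lower, beside 4356 and 3908 of all genes. Of 25 genes of the list, 20 were expressed widely enough to be compared; 4 were at least 1 higher and none at least 1 lower (median difference 0.21, 0.14 to 0.41 between plates). Col8a1, a short-chain collagen, gave 1.74 (51.6% against 18.5% of cells), Col6a2 and Col6a1, chains of beaded-filament collagen, 1.48 and 1.30, and Col1a1, the main fibril chain, 1.32. Among 7 ADAMTS proteases compared, 6 were higher, 2 of them by at least 1. Adamts1, which cuts versican, was higher at 1.52 (85.7 against 55.4 TPM) and Adamts4, which also cuts proteoglycans, at 1.05. Versican itself (Vcan), a proteoglycan of the papilla, was even at -0.04 (167 against 194 TPM).

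Of 10 metalloproteases and their inhibitors compared, Mmp3 was the gene past 1 upward and Timp3, a matrix-bound inhibitor, the gene past it downward (-1.17, 42.9% against 60.7% of cells). Mmp2, a gelatinase seen in all 304 cells, gave 0.78 (446 against 278 TPM). Among 25 proteoglycans and matricellular proteins compared, Postn, or periostin, gave 2.13 (57.1% against 27% of cells) and Spon2, a spondin, 1.83, while Spon1, its relative, gave -1.59 and Mfap4, a microfibril protein, -1.11. The list's median was 0.15.

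Transcription factors of the papilla differed in a few members. Of 29 genes of the list, 17 were expressed widely enough to be compared; 2 were at least 1 higher and 1 at least 1 lower (median difference 0.15, 0.05 to 0.17 between plates). Prdm1, or Blimp1, a repressor known in the papilla, ran from 0 through a median of 35.0 to 347 TPM in agouti-positive cells, and from 0 through 3.14 to 229 in agouti-negative cells (2.29, 2.06 to 2.50), and Twist1, a mesenchymal bHLH factor, gave 1.19. Alx4, a paired-type homeobox factor, was lower at -1.03 (41.9 against 78.7 TPM), and Tbx15, whose loss alters the belly and back boundary of coat colour, gave 0.75 (88.9% against 78.1% of cells). Sox2 and Sox18, which mark papillae of some hair types, were seen in 19.8% against 20.2% of cells and 7.14% against 9.55% of cells.

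Both groups carried the markers of dermal papilla. Of 10 core papilla genes, agouti-positive cells carried a median of 8 and agouti-negative cells 9. Of the 9 compared, 1 was at least 1 higher (Crabp1, a retinoic acid binding protein, 1.14) and 3 at least 1 lower (Rspo3, Corin and Alpl, the alkaline phosphatase used to stain the papilla, -1.56), with a median of -0.04. Enpp2, or autotaxin, was at 531 against 549 TPM, and Prom1, a membrane protein, was seen in 18.3% against 17.4% of cells. Of a wider list of 25 papilla genes, 23 were compared, 3 at least 1 higher and 5 at least 1 lower. No agouti-positive cell and 2 agouti-negative cells carried fewer than 5 core genes.

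Sets of 3 or more markers of immune, epithelial or pigment cells were found in few cells or none. Those of dermal sheath and interfollicular fibroblasts were found in more. At 10 TPM or more, 3 or more immune markers were present in 0 agouti-positive and 4 agouti-negative cells (of 10 markers, Cd3e and Cd207 were at 0 in every cell, and summed levels ran up to 73.9 and 4738 TPM), and 3 or more keratinocyte markers in 1 and 2 cells, with summed levels up to 77.8 and 842 TPM. Melanocyte, endothelial, Schwann cell and muscle progenitor markers gave no such cell. Single markers were more common: both groups carried a median of 1 keratinocyte, 1 melanocyte and 1 muscle progenitor marker at 1 TPM or more. Summed levels of muscle progenitor markers had medians of 245 TPM in agouti-positive and 267 TPM in agouti-negative cells. Of 12 dermal sheath and smooth muscle markers, 3 or more were at 10 TPM in 28 of 126 and 52 of 178 cells, with summed levels from 0 through a median of 62.2 to 1777 TPM in agouti-positive and 0 through 102 to 1249.7 TPM in agouti-negative cells. Of that list 4 were compared, 3 higher and 1 lower (median difference 0.12). Only Myl9 passed 1, and it was the lower one, at -1.86. Acta2, the best-known marker of the list, was seen in 8.73% against 8.99% of cells. Of 8 pericyte markers, 3 or more were at 10 TPM in 8 and 2 cells, the 3 compared were higher by less than 1, and Rgs5, a defining marker, was seen in 0% against 0.562% of cells; summed levels ran from 0 through a median of 43.0 to 198 TPM in agouti-positive and 0 through 25.7 to 268 TPM in agouti-negative cells. Of 12 interfollicular fibroblast markers, 3 or more were at 10 TPM in 68 of 126 and 90 of 178 cells. The part of these cells in the differences of pericyte and sheath genes was not tested. A filter that required papilla markers and few markers of some other cell types kept 296 cells, 125 agouti-positive and 171 agouti-negative. Most cells with sheath, pericyte or fibroblast markers therefore stayed in, and the result does not describe cells free of these markers. In the 296 cells, 185 genes were at least 1 higher and 92 lower, with 176 and 86 of them in common with the full set. Mmp3 differed by 2.65.

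Immediate early and stress genes, which respond within minutes to growth signals and to handling, moved with agouti. Of 23 genes of the list, 10 were expressed widely enough to be compared. Of these, 5 were at least 1 higher and 1 at least 1 lower, beside 2.21% and 1.08% of all 8264 genes. The median difference was 0.96 (0.62 to 1.34 between plates), and over all 23 genes it was 0.30. Hspb1, a small heat shock protein, gave 1.76 (0.32 to 3.10), Ier2 1.46, Zfp36, which destabilises mRNAs, 1.32, Klf4, a zinc finger factor, 1.24 and Nr4a1, a nuclear receptor, 1.11, while Socs3, a cytokine inhibitor, gave -1.16. Fos, Jun and Egr1, the classic members, were seen in 16.7% against 14% of cells, 20.6% against 14.6% of cells and 19.8% against 11.8% of cells. Summed levels ran from 34.9 through a median of 197 to 5457 TPM in agouti-positive and 2.92 through 123 to 3686 TPM in agouti-negative cells, so the groups overlapped.

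Cells were then parted at the median of these 23 genes, a split chosen after the data were seen. The upper part held 82 agouti-positive and 70 agouti-negative cells and the lower 44 and 108. Averaged over both parts, 168 genes were at least 1 higher and 70 lower, 154 and 64 of them in common with the full set. The difference of Mmp3 was 2.82 there, beside 2.75 before. Each of the 12 named lower genes had a difference smaller in size there. Among them were Rspo2 at -1.70 beside -2.25, Rspo3 at -1.43 beside -1.89 and Cited4 at -1.41 beside -1.88. Nrg2 stood at -1.84 beside -2.27 and Tsc22d1 at -1.77 beside -2.14. Corin stood at -0.47 beside -1.06, which is then under 1 in size. Of the higher genes, Gpx1 gave 2.51 beside 2.92, Gem 2.16 beside 2.48 and Sema5a 2.73 beside 2.95. Slc26a7 went the other way, at 2.93 beside 2.77, as did Avpr1a, at 2.99 beside 2.94. A split at the median does not even out the immediate early level within each part. The part of this response in the differences was not tested.

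Cells carrying a, Mmp3, both or neither were set side by side; all were chosen by values already shown. There were 90 cells with both, 36 with a alone, 58 with Mmp3 alone and 120 with neither. Dkk2 had a mean log2(TPM + 1) of 7.82, 7.0, 5.71 and 3.64 in that order, and Rspo3 3.29, 4.86, 5.37 and 5.76. Gpx1 was nearly the same with Mmp3 alone (4.44) as with neither (4.50).

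Single cells carried mixed sets of the named genes. Agouti-positive cells carried a median of 10 of the 12 named higher genes (3 to 12) and agouti-negative cells 5 (1 to 11). Of the 12 named lower genes they carried a median of 7 (1 to 12) and 10 (2 to 12). Among agouti-negative cells, 21 carried 9 or more of the 12 higher genes, as did 100 agouti-positive cells. The 12 genes each way were named for their difference between these same groups, so the counts repeat that difference and add no support. Netrin genes, which encode guidance proteins, crossed with a as follows: 11 cells carried a and Ntn1, 21 Ntn1 alone, 106 a and Ntng1, and 136 Ntng1 alone.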

How the data were processed

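Sorted single cells were read by Smart-seq2 on 4 plates of P30 dermal papilla and in the P30 hair bulb. The values are TPM deposited by the authors. Per the submitters' processing notes, Bowtie2 2.2.9, RSEM 1.2.30 and mm10 were used. The deposited dermal papilla table parts its fields by a slash and a letter t and was read as such; its columns sum to 999999.26 to 1000000.58. Read depth is unknown from TPM, so no count test, interval of a level or floor was computed.

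Differences of mean log2(TPM + 1), with a pseudocount of 1, were computed in Python 3.11.15 with numpy 2.4.6, pandas 2.3.3 and scipy 1.17.1, for genes that reached 1 TPM in 30% or more of either group's cells. Gene a, 92 spike-in, 362 ribosomal RNA and 35 mitochondrial rows were left out of the compared genes, and TPM were not rescaled. Positions and biotypes came from GENCODE M21 (46005 of 46609 rows matched). The script was tested on simulated data.

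The members, the 35 gene lists and the rules were chosen with earlier results of these data known. The naming rule takes the 12 largest differences each way with the same sign on each plate, without predicted models, pseudogenes, ribosomal protein and sort genes, up to 4 members with the largest differences of each list, all agouti pathway genes, the 6 genes most like and 6 most unlike a, and 3 genes on each side of a. Members named beyond it, among them Vcan, Enpp2, Axin2, Bmp4, Sox2, Sox18, Acta2, Kitl, Igf1r, Socs3, Nr4a1, Fos, Jun, Egr1 and the netrins, the bands of a, the classes by Mmp3, the motifs, the cell left out for Mmp3 and the split by immediate early genes were chosen after the values were seen. Alternatives covered the threshold of a, filters on cells and genes, the pseudocount, ratios of means, rescaling, strata of genes per cell, marker-positive cells and plates.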

Additional observations from a re-analysis of the deposited data

How the results depend on the processing

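Alternatives were followed for 25 named genes, without Mmp3. Apart from Corin and Edn3 these were named for large differences with a constant sign in the same cells, which favours a kept direction. The alternatives with genes seen in 10% of cells and with no filter on genes change only which genes are compared. Values of single genes could not move under these, yet they are counted here. Of the 450 values of the 25 genes under 18 alternatives, 91 were counted as moved, 438 stayed at 1 or more in size and 449 kept their direction. The exception was Corin, at 0.29 when the 33 nearly empty wells were kept; these join the agouti-negative cells, so 801 genes were then higher and 25 lower (97.0% of them higher, all-gene median 0.40), the median of core papilla genes was 1.02 and 15 lists with 4 or more genes compared had a median of 0.5 or more in size, against 5. A pseudocount of 0.1 gave 514 higher and 298 lower genes with Mmp3 at 4.03, and a pseudocount of 10 gave 38 and 16 with Mmp3 at 1.52 and 1 such list. Rescaling TPM with spike-ins, ribosomal RNA and mitochondrial genes left out gave 359 and 226 with Mmp3 at 3.57; TPM there are larger beside the pseudocount. As log2 ratios of mean TPM, Mmp3 stood at 0.93, core papilla genes at -0.21 and 3 lists passed. With genes seen in 10% of cells 1 list passed, and with no filter 0, where rarely seen genes pull the medians to 0. Within the parts above and below the median immediate early level, a split added after the data were seen, core papilla genes stood at 0.10. Leaving out plates gave 182 to 210 higher and 90 to 103 lower genes, and shares of agouti-positive cells from 39.0% to 43.5%. No paired analysis was possible because no animal is named and no test was run; averaging the differences within the 4 plates gave 184 higher and 91 lower genes, with Mmp3 at 2.78. Depth per cell is unknown, so genes at 0 may have been missed.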

Other observations

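Hedgehog, Notch and TGF-beta genes were split. Of 9 hedgehog pathway genes compared, Gas1, a co-receptor, was higher in agouti-positive cells at 2.30 (65.3 against 17.7 TPM; 1.25 to 3.20 by plate) and Ptch1, the receptor that is also a target, was lower at -1.13 (14.6 against 36.7 TPM). Boc, another co-receptor, gave 0.87 and Gli1, a target, -0.38 with a sign that varied over plates, and the list's median was 0.00. Of 8 Notch genes compared, Lfng, a glycosyltransferase that tunes Notch receptors, gave 1.37 (43.7% against 15.2% of cells) and Notch4, a receptor, -1.21 (18.3% against 39.3% of cells). Of 11 TGF-beta pathway genes compared, Cyr61, a matricellular protein, gave 2.39 (73.0% against 35.4% of cells) and Ltbp4, a binding protein of latent TGF-beta, 1.22, while Ltbp1 gave -0.80.

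Among 11 guidance genes compared, Nrp2, a semaphorin receptor, was higher with Sema5a, at 1.94 (45.1 against 17.6 TPM), Ntng1, a membrane-bound netrin, gave 0.51 and Ntng2 -0.61. None of 20 G2/M genes was seen in 30% of either group. Of 18 S phase genes, 3 or more were at 10 TPM in 35 of 126 agouti-positive and 56 of 178 agouti-negative cells. The 7 compared had a median of 0.01 with none past 1. Mitf, the master factor of melanocytes, which other cells also express, was seen in 71.4% against 46.6% of cells, beside Dct, a melanin enzyme, in 3.97% against 4.49% of cells, and Oca2 was at 0 in every cell. All 4 PDGF and VEGF genes compared were higher, by less than 1, with Pdgfrb, a PDGF receptor, at 0.76. Of all 8264 genes, 4356 were higher. Lox, a collagen cross-linking enzyme on the list of interfollicular fibroblasts, was lower at -1.67 (17.1 against 64.8 TPM). Of 5 genes of that list compared, 2 were higher and 3 lower (median -0.05). Over all 12 of its genes, 7 were higher and 5 lower.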
